A study of Mus musculus with 6 samples.

Results

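Regulators of the cardiac pacemaker and conduction system were followed in the ventricular apex of transgenic mice that carry PR-M, a human mitochondrial progesterone receptor. The set was Tbx3, Shox2, Isl1 and Tbx18 (pacemaker transcription factors), Hcn4 and Cacna1g (pacemaker channels), Cntn2 (an adhesion molecule of conduction cells) and Gja5 and Gjc1 (connexins). Every probe set whose platform annotation gives exactly 1 gene symbol equal to one of these names was taken, which gave 19 of the 45037 probe sets that are not controls. These 19 belong to 8 of the 9 listed genes, of 18193 genes in all. No probe set with several symbols names one of them. Hcn4 was matched by no probe set under this rule and was not analysed here.

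The study compared 3 PR-M expressing with 3 PR-M non-expressing samples, each hybridised to 1 Affymetrix Mouse Genome 430 2.0 array. All 6 received 2.5 mg progesterone in oil under the skin for 19 to 21 days, and no group without the hormone was part of the comparison. The sources used here do not give the strain, age, sex, promoter of the transgene or the way expression was established. Nor do they say that each array stands for a separate animal, so a p-value covers the spread among arrays, which may be technical. Prefixes of the sample titles differ between the groups, a possible batch that cannot be told apart from PR-M. Non-expressing replicate 1 is the only array with its prefix. The labelled tissue is heart, and the ventricular muscle markers Myl2 and Myl3 lay at 14.5 to 14.7 in all 6 arrays, near the top of the deposited log2 scale.

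The heartbeat starts in the sinoatrial node, whose cells depolarise spontaneously, and passes through the atrioventricular node, the His bundle and the Purkinje fibres to working muscle. Shox2, Isl1, Tbx3 and Tbx18 help to form the node and to keep its cells from becoming working muscle, while HCN4 and T-type calcium channels such as that of Cacna1g help to carry the pacemaker depolarisation. Connexin 40 (Gja5) couples fast conducting cells and connexin 45 (Gjc1) couples nodal cells, and contactin 2 (Cntn2) marks Purkinje cells. Nodes lie in the atria and near the septum, so of these structures the ventricular apex is known for its Purkinje fibres.

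None of the 19 probe sets passed the test of expressing against non-expressing arrays (limma, Benjamini-Hochberg over 45037 probe sets, threshold 0.05). Their adjusted p ran from 0.109 to 0.977. Over all probe sets 6 passed, or 0.0133%. With each gene represented by its brightest probe set, 0 of the 8 passed over genes (limma). At an unadjusted p under 0.05 there were 8 of the 19 (42.1%), 6 higher and 2 lower in the expressing group, beside 12.2% of all probe sets, with 5.86% higher and 6.37% lower. Values of the 2 groups stood apart, without overlap, in 7 of the 19 (36.8%), 5 higher (26.3%) and 2 lower (10.5%), beside 18.6% of all probe sets, with 8.27% higher and 10.3% lower. Probe sets of 1 gene are not independent. Cntn2 alone gave 3 of the 7, and all 4 of its probe sets were among the 8. The members were chosen with earlier results of these arrays known. The median log2 difference, expressing minus non-expressing, was 0.11 over the 19, of which 12 were positive, and -0.019 over all probe sets, of which 44.4% were positive.

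Without non-expressing replicate 1, whose mean correlation with its own group was 0.993 against 0.995 for the other non-expressing arrays, 0 of the 19 passed, 9 were at an unadjusted p under 0.05 and 10 did not overlap. Fewer arrays make a lack of overlap easier to reach. Shares over all probe sets are not given for this setting, so these counts have no background beside them. The groups also differed in control probe sets. Those of 18S ribosomal RNA were at 8.31 ± 0.22 in expressing and 9.88 ± 0.38 in non-expressing arrays (SD, n = 3 each). For beta-actin the 3′ value exceeded the 5′ value by 1.23 ± 0.05 and 1.38 ± 0.07. Neither measure overlapped (two-sided exact permutation test, p = 0.1 for each, which no split of 3 against 3 can go below). For Gapdh the 3′ value exceeded the 5′ value by 0.17 ± 0.06 and 0.25 ± 0.07, with overlap (the same exact test, p = 0.3). Their part in the member differences was not tested.

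The array carries no detection call in the deposited values. Olfactory receptor probe sets, which the heart is not known for, gave a yardstick. The 95th percentile of the means of 44 such probe sets was 6.02 on the log2 scale, and a probe set with a mean at or below this limit is called dim here. By this limit 9 of the 19 were above it and 10 were dim, while 45.8% of all probe sets were above it. A dim probe set may read little but background, so a difference there may not reflect RNA.

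**Figure D1:**
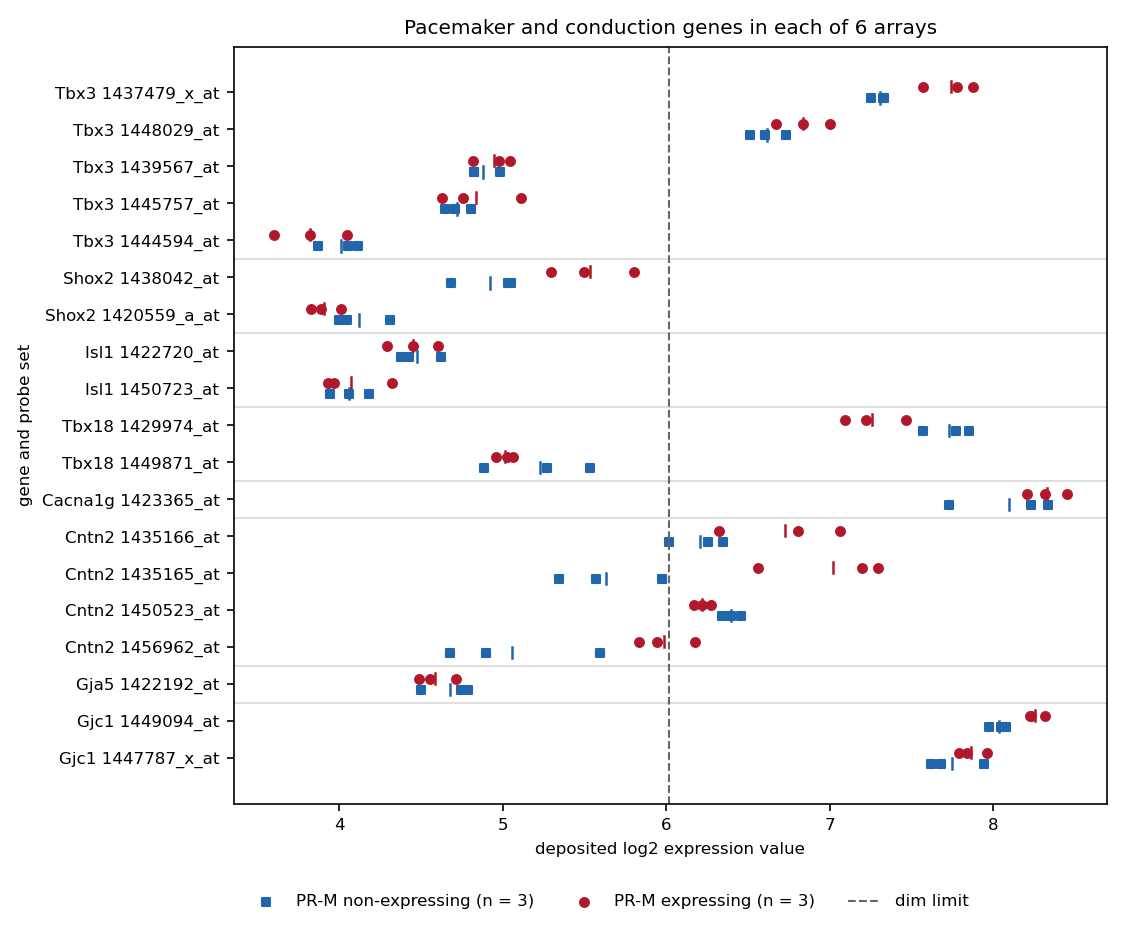
Deposited log2 values (horizontal axis) of the 19 probe sets (vertical axis) in the 3 PR-M expressing arrays (red circles) and the 3 non-expressing arrays (blue squares), with group means as short bars and the dim limit of 6.02 as a dashed line. The groups part without overlap in 7 probe sets, and 10 of the 19 have a mean left of the limit.

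Tbx3 encodes a T-box repressor that holds back the working muscle programme in the node and the atrioventricular conduction system. It has 5 probe sets, of which 2 were above the dim limit, and both of these were higher in the expressing group without passing. Probe set 1437479_x_at read 7.78, 7.57 and 7.88 in expressing replicates 1 to 3 and 7.33, 7.33 and 7.25 in the non-expressing ones. The lowest expressing array lay above the highest non-expressing array. The difference was 0.44 (SE 0.10, 95% interval 0.22 to 0.65), a 1.35-fold difference with an adjusted p of 0.183. The ending _x_at marks probes that may bind other transcripts too.

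The other bright Tbx3 probe set, 1448029_at, read 6.84, 6.67 and 7.01 in expressing and 6.73, 6.61 and 6.51 in non-expressing arrays. Here the groups overlapped, since expressing replicate 2 lay below non-expressing replicate 1. The difference was 0.22 (SE 0.11, adjusted p 0.441), and it was 0.14 without expressing replicate 3. The 3 dim Tbx3 probe sets lay between 3.60 and 5.11 and differed by 0.07, 0.11 and -0.19, all with overlap. With 1 array left out 1439567_at ran from 0.020, without expressing replicate 2, to 0.13, without expressing replicate 1, and 1444594_at from -0.30, without expressing replicate 3, to -0.078, without expressing replicate 2. The mean of the 5 Tbx3 probe sets differed by 0.13 (adjusted p 0.561 over genes).

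Shox2 encodes a homeobox factor that keeps Nkx2-5 activity low in the sinoatrial node. Both of its probe sets were dim, and they pointed in opposite directions. Probe set 1438042_at read 5.50, 5.80 and 5.29 in expressing and 4.68, 5.05 and 5.03 in non-expressing arrays. Every expressing array was above every non-expressing one, yet all 6 lay below the dim limit. The difference was 0.61 (SE 0.15, 95% interval 0.27 to 0.95, adjusted p 0.199).

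The second Shox2 probe set, 1420559_a_at, read 3.82, 4.01 and 3.89 against 4.31, 4.05 and 4.0. Its groups overlapped by 1 array on each side, with a difference of -0.21 (SE 0.10, adjusted p 0.448), which was -0.12 without non-expressing replicate 1. The mean of both differed by 0.20 (adjusted p 0.418 over genes).

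Isl1 encodes a LIM homeobox factor of cardiac progenitors, nodal cells and cardiac ganglion neurons. Both of its probe sets were dim and overlapped. Probe set 1422720_at read 4.29, 4.45 and 4.61 in expressing and 4.62, 4.38 and 4.42 in non-expressing arrays, a difference of -0.025 (95% interval -0.27 to 0.22). Probe set 1450723_at read 3.97, 4.32 and 3.93 against 4.18, 3.94 and 4.06, a difference of 0.013 (95% interval -0.26 to 0.29). The intervals leave room for differences in either direction, on probe sets that may read background.

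Tbx18 encodes a T-box factor of the sinus node head, the epicardium and pericytes. Of the 2 factors with a probe set above the dim limit, Tbx3 had higher and Tbx18 lower values in the expressing group. Probe set 1429974_at read 7.47, 7.22 and 7.10 in expressing and 7.57, 7.77 and 7.85 in non-expressing arrays. The groups did not overlap, with expressing replicate 1 and non-expressing replicate 1 the closest pair. The difference was -0.47 (SE 0.12, 95% interval -0.74 to -0.20), a 1.39-fold difference with an adjusted p of 0.204.

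The second Tbx18 probe set, 1449871_at, was dim. It read 5.06, 4.96 and 5.02 against 4.88, 5.27 and 5.53, so that non-expressing replicate 1 was the lowest of all 6 arrays and replicates 2 and 3 were the highest. The difference was -0.21 (SE 0.15, adjusted p 0.585), and it was -0.062 without non-expressing replicate 3 and -0.39 without non-expressing replicate 1. The mean of both differed by -0.34 (adjusted p 0.334 over genes).

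Cells other than nodal ones carry Tbx18, and their marker lists are given beside it. Of 10 epicardial markers 8 had positive and 2 negative differences and 0 passed over genes, with a median of 0.17 beside -0.019 over all genes, 44% of which were positive. Their summed level, the log2 of the sum of the linear values, ran from 10.5 to 11.1 in expressing and from 10.5 to 11.0 in non-expressing arrays and overlapped. Tcf21, a factor of the epicardium and fibroblasts, differed by 0.19 without overlap (adjusted p 0.404). Wt1, a defining epicardial factor named after its values were seen, differed by -0.035 (adjusted p 0.930). Of 10 markers of pericytes and smooth muscle 5 were higher and 5 lower, none passed, and the summed level ran from 13.70 to 13.78 and from 13.68 to 13.76. Kcnj8, which encodes a potassium channel subunit of pericytes, did not overlap and differed by -0.20 (adjusted p 0.368). Tagln, a smooth muscle gene with the next lowest p, ran the other way with overlap and differed by 0.56 (adjusted p 0.439). Acta2, the smooth muscle actin gene, was named after its values were seen and differed by 0.48 with overlap (adjusted p 0.486). In whole tissue, fewer cells of a type and less RNA per cell cannot be told apart.

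Cacna1g encodes the T-type calcium channel Cav3.1, which opens at low voltage. It has 1 probe set, 1423365_at, among the brighter members. It read 8.32, 8.21 and 8.45 in expressing and 7.73, 8.23 and 8.34 in non-expressing arrays. Non-expressing replicate 1 was the lowest array, and the other non-expressing arrays lay within the expressing range. The difference was 0.23 (SE 0.15, 95% interval -0.12 to 0.58, adjusted p 0.576), and it was 0.044 without non-expressing replicate 1.

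Cntn2 held the largest differences of the set. It encodes contactin 2, a cell adhesion molecule of the immunoglobulin family found on axons and Schwann cells as well as on conduction cells. It has 4 probe sets, of which 3 had higher and 1 lower mean values with PR-M. None passed. Probe set 1435165_at read 7.29, 7.20 and 6.56 in expressing and 5.57, 5.35 and 5.98 in non-expressing arrays. All expressing arrays lay above the dim limit and all non-expressing arrays below it, with expressing replicate 3 and non-expressing replicate 3 closest to each other. The difference was 1.39 (SE 0.21, 95% interval 0.90 to 1.88), a 2.62-fold difference with an adjusted p of 0.109, the lowest of the 19. Since the non-expressing values lie below the limit, the fold is uncertain.

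Probe set 1456962_at, dim on average, read 5.94, 6.17 and 5.84 in expressing and 4.68, 4.90 and 5.60 in non-expressing arrays. The groups did not overlap, and non-expressing replicate 3 was again the closest to the expressing arrays. The difference was 0.93 (SE 0.21, 95% interval 0.44 to 1.42, adjusted p 0.185). Probe set 1435166_at, the brightest of the 4 by its mean, read 6.32, 7.06 and 6.80 against 6.02, 6.25 and 6.35. Here non-expressing replicate 3 lay just above expressing replicate 1. The difference was 0.52 (SE 0.18, adjusted p 0.312).

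The remaining Cntn2 probe set ran the other way. Probe set 1450523_at read 6.27, 6.17 and 6.22 in expressing and 6.46, 6.34 and 6.40 in non-expressing arrays, without overlap. The difference was small, -0.18 (SE 0.08, 95% interval -0.35 to -0.0034, adjusted p 0.402). The mean of the 4 probe sets differed by 0.67 (SE 0.12, adjusted p 0.195 over genes). Which part of the transcript each probe set reads is not given in the sources used here.

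**Figure D2:**
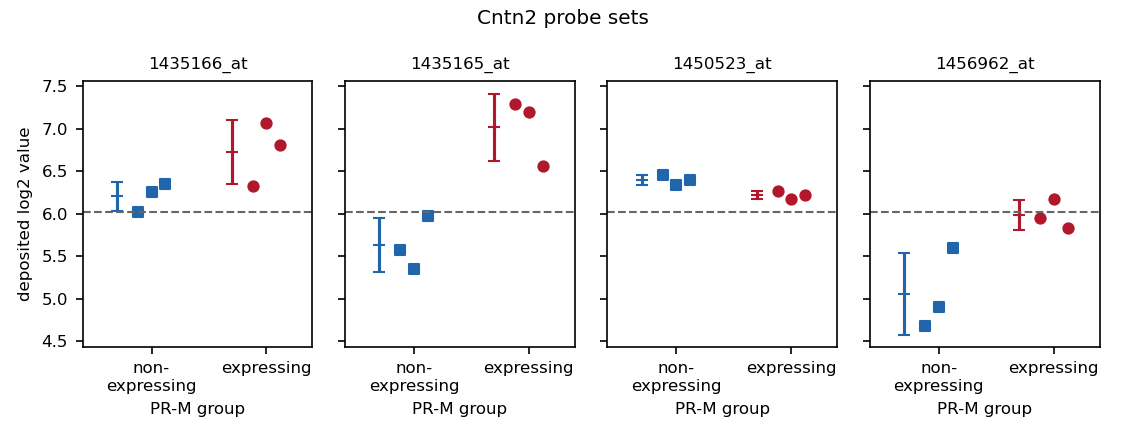
Deposited log2 values of the 4 Cntn2 probe sets (1 panel each, vertical axis) in non-expressing (blue squares) and expressing (red circles) arrays, with the mean ± SD (n = 3) beside the points and the dim limit of 6.02 dashed. Probe sets 1435165_at, 1456962_at and 1435166_at have higher means in the expressing group by 1.39, 0.93 and 0.52, and 1450523_at has a lower one by 0.18.

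Promoter windows were read for the genes at both ends of the range, Cntn2 and Tbx18. The sequences searched were those of T-box factors such as Tbx3 and Tbx18, and of NKX2-5 and GATA factors, which are not in the set. No sequence was searched for Shox2 or Isl1. The set of RefSeq promoter windows used here (GRCm38.p6) covered 6 of the 9 listed genes, Shox2, Isl1, Tbx18, Hcn4, Cntn2 and Gja5. The 250 bases before the start are shown 5′ to 3′ on the gene's strand, for Cntn2 chr1:132542941-132543190 (minus strand) and for Tbx18 chr9:87731261-87731510 (minus strand). Capitals mark the T-box core GGTGT and the NKX2-5 core AAGTG on either strand.
Cntn2: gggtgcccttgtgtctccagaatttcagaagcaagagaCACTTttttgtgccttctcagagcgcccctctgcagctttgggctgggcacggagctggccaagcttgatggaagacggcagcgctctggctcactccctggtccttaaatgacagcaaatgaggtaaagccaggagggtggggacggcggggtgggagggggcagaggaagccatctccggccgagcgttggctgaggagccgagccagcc
Tbx18: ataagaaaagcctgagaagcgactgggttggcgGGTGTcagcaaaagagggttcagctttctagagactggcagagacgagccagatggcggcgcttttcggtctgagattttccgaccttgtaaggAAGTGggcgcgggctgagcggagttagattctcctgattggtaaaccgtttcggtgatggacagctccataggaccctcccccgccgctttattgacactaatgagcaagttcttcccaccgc

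Cntn2 held 1 NKX2-5 core, which began 212 bases before the start, and no T-box core. Tbx18 held 1 T-box core at 217 bases and 1 NKX2-5 core at 123 bases before the start. Such short cores are common: 36.2% of 32851 windows of the same length held GGTGT and 40.7% held AAGTG. The longer T-box half-site GGTGTGA, the NKX2-5 sequence TNAAGTG and the GATA sequence AGATAA were found in none of the 6 windows, and in 3.33%, 10.1% and 9.99% of all windows. The cores were searched after the longer sequences gave no match. No letters beyond these windows were searched.

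Contactin 2 occurs in nerve, so markers of Schwann cells and of cardiac neurons are given beside it. All 8 measured Schwann cell markers had positive differences, with a median of 0.031, and none passed. Their summed level ran from 10.73 to 10.79 in expressing and from 10.62 to 10.70 in non-expressing arrays, without overlap. Mbp, a myelin protein gene, read 7.11, 6.73 and 7.11 against 5.85, 6.22 and 6.25, a difference of 0.88 (SE 0.14, adjusted p 0.117). Cdh19, a cadherin gene of Schwann cells, differed by 0.50 (adjusted p 0.213), and Sox10, the defining factor of the lineage, by 0.048 (adjusted p 0.834). Sox10 was named after its values were seen.

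Of 13 measured neuronal markers 8 had positive and 5 negative differences, none passed, and 7 were dim. Their summed level ran from 10.81 to 11.04 in expressing and from 10.59 to 10.78 in non-expressing arrays, without overlap. Hand2, a factor gene named after its values were seen that heart muscle also uses in development, gave 41.9% to 54.2% of the summed linear values. Without Hand2, a sum added after seeing the data, the other 12 ran from 9.86 to 9.91 and from 9.80 to 9.87 and overlapped. In 4 of the 13 the groups did not overlap, 1 of them higher, beside 19% of all genes in either direction. Ddc, which encodes aromatic amino acid decarboxylase, differed by 0.94 without overlap (SE 0.14, adjusted p 0.0881). Its adjusted p over genes was 0.0498 with array weights and 0.0489 with a trend and robust prior (limma). No other alternative at the threshold of 0.05, including each array left out, brought any neuronal marker past it. Slc5a7, the choline transporter gene of cholinergic neurons, differed by -0.35 without overlap (adjusted p 0.298) at a dim level. Stmn2 and Snap25, the latter dim, were named after their values were seen. They differed by -0.33 and -0.28, also without overlap. The part of nerve and neurons in the Cntn2 values was not tested.

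The 5 probe sets above the dim limit whose values followed Cntn2 1435165_at most closely over the 6 arrays belonged to Nsmce4a, Eif3f, Sh3gl3, Pdik1l and Kdm4c, with Pearson r from 0.990 to 0.992. With 6 arrays, 406 of 18230 named probe sets above the limit had r over 0.9, so this order says little. The 6 points share the group difference.

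Gja5, the connexin 40 gene of atrial muscle, His and Purkinje cells and arterial endothelium, has 1 probe set and was dim. Probe set 1422192_at read 4.71, 4.48 and 4.56 in expressing and 4.74, 4.50 and 4.78 in non-expressing arrays. The groups overlapped across almost their whole range. The difference was -0.09 (SE 0.10, 95% interval -0.33 to 0.15, adjusted p 0.761). With 1 array left out it ran from -0.036, without non-expressing replicate 3, to -0.18, without non-expressing replicate 2. The 10 markers of arterial endothelium, where Gja5 is also active, had a median difference of -0.022, with 4 higher, 6 lower and none past the threshold. Their summed level ran from 11.83 to 12.05 and from 11.86 to 12.02 and overlapped.

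Gjc1, the connexin 45 gene of nodal cells and smooth muscle, has 2 bright probe sets. Probe set 1449094_at read 8.32, 8.23 and 8.23 in expressing and 7.97, 8.05 and 8.08 in non-expressing arrays. The groups did not overlap and each was tight. The difference was 0.22 (SE 0.08, 95% interval 0.05 to 0.40), a 1.17-fold difference with an adjusted p of 0.311. Probe set 1447787_x_at read 7.79, 7.96 and 7.84 against 7.95, 7.62 and 7.68, with non-expressing replicate 1 inside the expressing range. It differed by 0.12 (SE 0.10, adjusted p 0.688), and by 0.21 when non-expressing replicate 1 was left out. Leaving out replicate 2 of the non-expressing or the expressing group gave 0.050 and 0.067.

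**Figure D3:**
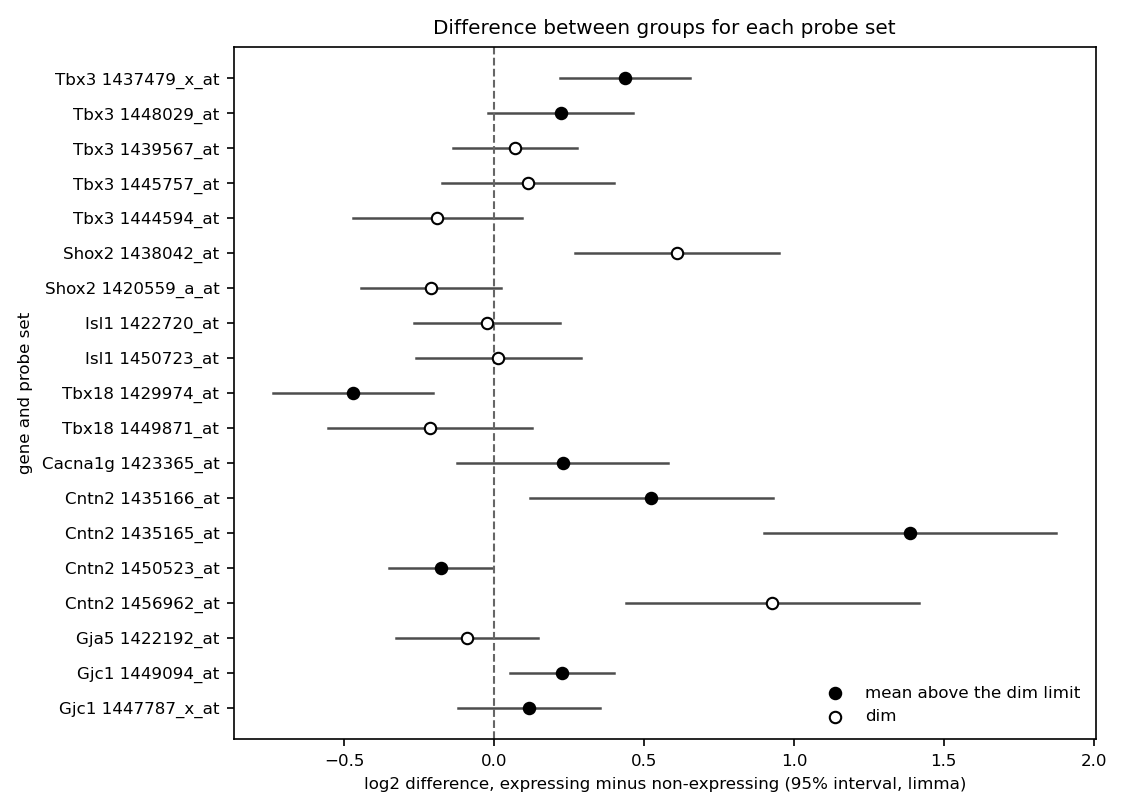
Log2 differences, expressing minus non-expressing, of the 19 probe sets with 95% intervals from limma (3 arrays in each group), filled where the mean lies above the dim limit and open where it is dim. Cntn2 1435165_at reaches 1.39 and Tbx18 1429974_at -0.47, and half-widths of the intervals run from 0.17 to 0.49.

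Tbx3 1437479_x_at and Gjc1 1449094_at were above the dim limit in all 6 arrays and higher without overlap, and Tbx18 1429974_at and Cntn2 1450523_at were above it in all 6 and lower without overlap. Cntn2 1435165_at, also higher without overlap, has a mean above the limit through its expressing arrays alone. Shox2 1438042_at and Cntn2 1456962_at were dim and higher without overlap. The other 12 overlapped.

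With intervals this wide, an adjusted p over the threshold does not show that a gene was level between the groups.

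Genes related to the set by role were taken from 3 lists, with each gene represented by its probe set of highest mean and p adjusted over 18193 genes, of which 12 (0.066%) passed. Of 13 measured relatives of the transcription factors, 11 were higher, 2 lower and 0 passed, with a median of 0.12 beside -0.019 over all genes. In this list 3 genes did not overlap, all higher, where 19% of all genes did not overlap in either direction. Gata6, a zinc finger factor of heart muscle, read 9.86, 9.89 and 10.12 against 9.69, 9.61 and 9.71, a difference of 0.29 (adjusted p 0.345). Tbx5, a T-box activator needed in the conduction system, read 8.23, 8.37 and 8.31 against 7.84, 8.13 and 8.14, a difference of 0.27 (adjusted p 0.394). Nkx2-5 was not among the lowest p and differed by -0.072, a value named after it was seen.

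Among 13 measured relatives of the pacemaker channels, 8 were higher, 5 lower and 0 passed, with a median of 0.056. Cacna2d2, which encodes an auxiliary calcium channel subunit, read 6.81, 7.25 and 6.83 in expressing and 6.12, 6.17 and 6.01 in non-expressing arrays, without overlap. Its difference was 0.87 (SE 0.12), a 1.82-fold difference with an adjusted p of 0.0736, which ran from 0.0406 to 0.368 over 18 alternatives. Cacna1h, the gene of the T-type channel Cav3.2, was dim. It read 4.75, 4.75 and 4.74 against 4.38, 4.42 and 4.33, a difference of 0.37 (adjusted p 0.166). Hcn2, the HCN channel gene of ventricular muscle, was named after its values were seen and differed by 0.12 (adjusted p 0.551). It read 9.09, 9.15 and 9.13 against 9.02, 9.04 and 8.94 and did not overlap.

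Of 15 measured further conduction genes, 9 were higher, 6 lower and 0 passed, with a median of 0.048. Kcnj2, the inward rectifier gene that stabilises the resting potential, was dim and differed by -0.24 (adjusted p 0.385). The other gene of lowest p, Kcne1, a potassium channel subunit gene also dim, read 5.52, 5.08 and 5.45 against 5.84, 5.43 and 5.69, with overlap, and did not pass. Gja1, the main connexin gene of working muscle, was named after its values were seen. It read 13.15, 13.11 and 13.07 in expressing and 13.26, 12.53 and 12.82 in non-expressing arrays, with overlap and non-expressing replicate 1 highest.

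**Figure D4:**
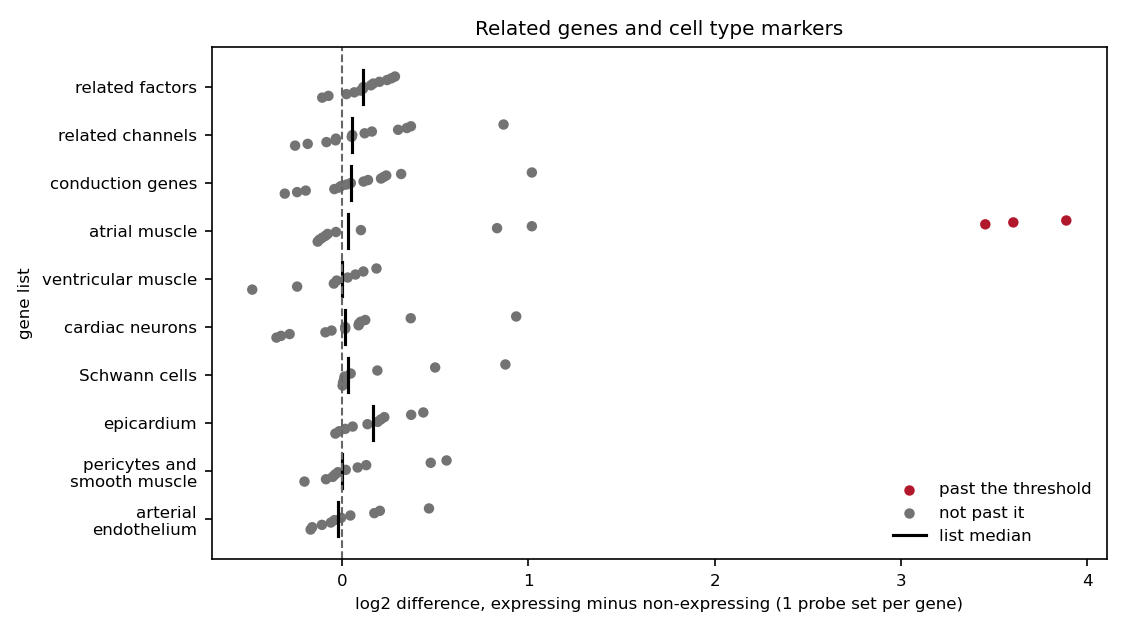
Log2 differences, expressing minus non-expressing, of each measured gene (1 probe set per gene) in 3 lists of related genes and 7 lists of cell type markers, with list medians as bars. Genes past the threshold are red, and these are 3 atrial muscle genes at 3.45 to 3.89.

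Atrial tissue holds nodes, so atrial markers are given beside the set. Of 12 atrial muscle markers 6 were higher and 6 lower, with a median of 0.035, and 3 rose, Sln, Myl4 and Myl7. These markers and this result were known from earlier results of these arrays. Their summed level ran from 12.6 to 13.6 in expressing and from 12.1 to 12.5 in non-expressing arrays, without overlap. Expressing replicate 2 held the highest Sln (10.24), Myl4 (11.72) and Myl7 (10.96) of all arrays. Among the 9 member probe sets above the dim limit, it was highest of its group for Cntn2 1435166_at and Gjc1 1447787_x_at. It was lowest of its group for both bright Tbx3 probe sets, Cacna1g, Cntn2 1450523_at and Gjc1 1449094_at. For Cntn2 1435165_at and Tbx18 1429974_at it lay in the middle. Sample titles have 1 prefix in the expressing group and 2 in the non-expressing group, 1 of them on replicate 1 alone, a possible batch. A random block for this prefix ended the 3 calls. Leaving out expressing replicate 3 or any 1 of the non-expressing arrays also left 0 of the 12 past the threshold, while 2 were left without expressing replicate 1. Without expressing replicate 2 all 3 stayed past it. Their differences were then 3.23 for Sln, 3.02 for Myl4 and 2.97 for Myl7 (limma, adjusted p 0.000199, 0.00466 and 0.00466). The summed ventricular markers ran from 15.67 to 15.73 in expressing and from 15.74 to 15.75 in non-expressing arrays, also without overlap, and none of the 8 passed. Myl2, which like Myl3 lies near the top of the scale, gave 46.6% to 49.6% of the summed linear values. Without Myl2, a sum added after seeing the data, the other 7 ran from 14.709 to 14.749 and from 14.754 to 14.843. That sum is mostly Myl3, which read 14.56, 14.53 and 14.55 in expressing and 14.60, 14.60 and 14.57 in non-expressing arrays. Neither sum therefore speaks for the list as a whole. The gaps between the summed ventricular levels are small. The part of atrial tissue in the differences of the pacemaker genes was not tested.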

How the data were processed

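Each probe set has 1 log2 value per array, as the authors deposited it, between 2.09 and 14.8. The submitters' processing notes name RMA and Partek 6.6, with no role or order. Total RNA (500 ng) was amplified and labelled with biotin, per the labels' protocols. Array medians were 5.77 to 5.78, so differences are relative to the other genes. Of 45101 probe sets 64 are controls, and the platform annotation gives 1 symbol to 34945 of the rest.

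Groups were compared with limma 3.58.1 in R 4.3.3 (lmFit, eBayes, two-sided), with Benjamini-Hochberg adjustment. The fit over genes takes p from the same fit and adjusts it over the brightest probe set of each gene. SE is the moderated standard error. The precision is limited by 3 arrays in each group. The script was tested on simulated data.

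All member probe sets are named. From each list of related genes those past the threshold are named, or else the 2 with the lowest p, and from each marker list at most 2. Genes outside this rule are said to be named after their values were seen. The members and lists were chosen with earlier results of these data known. Alternatives were a filter on dim probe sets, 3 other scalings, an intensity trend with robust fitting, weights per array, a random block for the prefix of the sample titles (statmod 1.5.0), ordinary statistics, another threshold, probe set types, averaging the probe sets of each gene, a fit over genes only, and leaving out each array.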

Additional observations from a re-analysis of the deposited data

How the results depend on the processing

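No member probe set passed under any of the alternatives run, and none did with 1 array left out. The 15 alternatives gave 273 differences of member probe sets, of which 8 changed sign, all of them small values of dim probe sets. The filter on dim probe sets gives no value for the 10 dim ones. Isl1 1422720_at was -0.025 and became 0.020 with array weights, 0.0094 with cyclic loess, and 0.0038 with quantile normalization, and ran from -0.10 to 0.055 with 1 array left out. Isl1 1450723_at ran from -0.11 to 0.085 and Tbx3 1445757_at from -0.027 to 0.22 with 1 array left out. Cntn2 1435165_at stayed between 1.25 and 1.62, with an adjusted p from 0.0641 to 0.384, and Tbx18 1429974_at between -0.57 and -0.39, with an adjusted p from 0.0968 to 0.438. Member probe sets at an unadjusted p under 0.05 numbered 6 to 9 with 1 array left out and 6 to 10 under the other settings, and those without overlap 8 to 10 and 5 to 7. Under the other settings the lowest counts, 6 and 5, came from the filter on dim probe sets, which leaves 9 of the 19. Without _x_at and _s_at probe sets fewer than 19 remain too. No share over all probe sets is given for these settings. These counts under alternatives were added after seeing the data. The lists of channel relatives and of neuronal markers each went from 0 to 1 gene past the threshold, Cacna2d2 and Ddc, with a trend and robust prior, with array weights and at a threshold of 0.1, and the cause was not tested. The 3 atrial calls became 1 without _x_at and _s_at probe sets and 0 when the probe sets of each gene were averaged, among other alternatives. The title prefix had a consensus correlation of 0.117, and each prefix holds 1 group, so no value within a prefix can be given. No paired analysis was possible because the replicate numbers only follow record order and pair no samples.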
